A study of Mus musculus with 24 samples.

Results

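Interferon gamma (IFNg) given together with lipopolysaccharide (LPS) was compared with LPS alone after 18 h in cultured mouse macrophages. The members are the 3 libraries of LPS with IFNg at 18 h and the 3 of LPS at 18 h, chosen by their labels, which are 6 of the 24 libraries of the series. All were RNA sequencing libraries of macrophages grown from marrow of C57BL/6 wild-type mice and used at day 7 of culture with CSF-1, their growth factor, at 20 ng/mL. LPS is a bacterial cell wall component that binds TLR4, and IFNg was added at 50 ng/mL. For LPS the labels name both 20 and 100 ng/mL with no statement of which group received which, so the added IFNg and any difference in LPS dose cannot be told apart. Unstimulated macrophages at 18 h (3 libraries) give the resting level of each gene, and LPS with and without IFNg at 1 h (3 libraries each) give the early effect of the same addition. The labels do not say whether replicates were separate mice or cultures, so p-values measure only a spread among libraries that may be technical.

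The 6 libraries held 5713462 to 8057789 counts, and 15450 to 16227 genes had at least 1 read. Where every library of a group has 0 counts, 3 counts over that group set the upper limit, 0.191 CPM (counts scaled to a common total per library) with LPS and 0.177 CPM with IFNg, for counting error only. A first principal component with 75.3% of the variance of the 6 libraries separated the groups. LPS replicate 2 stood apart from its group, since chi-square divided by the number of genes was 9.26 and 11.4 in its pairs and 2.42 in the pair without it; the LPS with IFNg replicates differed by 1.83 to 2.41. All 10 macrophage markers were measured and their summed level was 25356 to 26716 CPM with LPS and 13489 to 13856 CPM with IFNg, against 15326 to 17147 CPM in unstimulated cells. The T and NK cell list summed to 0.711 to 1.25 CPM with LPS and 3.03 to 4.73 CPM with IFNg, with Cd2, Cd3d, Cd3e, Cd3g, Klrb1c, Ncr1 and Trbc2 at 0 in all 6 libraries. The 1 member of this list with enough counts for testing was higher with IFNg (log2 change 2.16), as it was at 1 h. Neutrophil markers summed to 104.5 to 162 CPM with LPS and 27.6 to 51.5 CPM with IFNg, and dendritic cell markers to 3.55 to 6.05 and 12.3 to 16.7 CPM. B cell, mast cell or granulocyte, stromal and erythroid lists stayed at or below 17.2 CPM in sum. The part of other cells in the results was not tested, and in bulk RNA fewer cells of a type and less RNA per cell cannot be told apart.

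IFNg is the cytokine by which T and NK cells activate macrophages. Its receptor, made of Ifngr1 and Ifngr2, signals through the kinases Jak1 and Jak2 to transcription factors that bind sites called GAS in promoters; the transcription factor IRF1 is an early target and itself acts on sites called ISRE. LPS reaches some of the same genes through TLR4, NF-kappaB and interferon beta. Macrophages given both stimuli are the usual model of inflammatory, or M1, activation, known for nitric oxide, antigen presentation and GTPases that attack microbes inside the cell.

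Of 12765 tested genes, 6051 were called at an adjusted p below 0.05 (47.4%), and 3059 were higher (24%) and 2992 lower (23.4%) with IFNg. By at least 2-fold 847 rose (6.64%) and 817 fell (6.40%), and the median change over all tested genes was -0.0042 on the log2 scale. Changes are relative to TMM scaling, which centres the bulk of genes; scaling by library size alone moved the median of all genes by -0.12 and gave 2329 higher and 3912 lower. Values after gene names are log2 changes, LPS with IFNg against LPS, ± SE, by quasi-likelihood fits of edgeR and p adjusted after Benjamini-Hochberg, with 3 libraries in each group, and levels are TMM-scaled CPM. Since nearly 1 in 4 genes was called in each direction, counts for gene lists are to be read against 24% and 23.4%. No share of all tested genes is given for groups without overlap, so statements of no overlap describe the named genes only. The strand setting of the read counting is not given in the sources used here, so reads of overlapping genes on opposite strands cannot be told apart. Among the genes named below this touches Ciita (with Dexi), H2-DMa (Brd2), Psmb9 and Tap1 (with each other), Tap2, Tapbp, Psmb8, Il12rb2 (Serbp1), Il27 (Apobr), Il18bp (Numa1), Ebi3, Il1a, Irf5 (Tnpo3), Arg2 (Vti1b), Pfkp (Pitrm1), Sirt3 (Ric8a), Bst1 (Fbxl5), Apex1 (Pip4p1), Gss (Acss2), Cebpd (Spidr), Ncf1 (Gtf2ird2), Irak3 (Tmbim4) and Cp (Hps3), whose partners had substantial reads of their own.

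Genes of several kinds were among the largest increases. Serpina3g, a serpin that inhibits proteases, read 6.4, 11.3 and 6.43 CPM in the LPS libraries and 1358, 1403 and 1262 with IFNg, a change of 7.40 ± 0.18 (adjusted p = 3.2e-25). Its near relative Serpina3f rose by 6.84 ± 0.21; the sequences of this family are so alike that reads may have been split between them. The levels of both in every library with IFNg were far above those with LPS. Others in the leading 20 were the calponin gene Cnn3 (7.10 ± 0.23), the chloride channel gene Clic5 (6.34 ± 0.17), the amino acid transporter gene Slc6a19 (6.29 ± 0.27), the ubiquitin-like gene Ubd (6.09 ± 0.60), the MYC family gene Mycl (6.08 ± 0.57), the extracellular nuclease gene Dnase1l3 (5.42 ± 0.34) and the serpin gene Serpinb1a (4.69 ± 0.39). Bcl2l14, of the BCL2 family, had no counts in the LPS libraries and was at least 80.7-fold higher. Pacsin1, an endocytic adaptor (93.7-fold higher in depth-scaled counts, 95% interval 31.8 to 457), and Mb21d2 (158-fold higher in depth-scaled counts, 95% interval 28 to 6280.0) had 1 to 3 counts with LPS. In this set of increases the adjusted p was 4.0e-12 or smaller.

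Where the mean reached 5 CPM and the groups did not overlap, Hp fell most. Hp, encoding haptoglobin, which binds free haemoglobin, read 223, 300.4 and 165 CPM with LPS and 1.86, 1.9 and 2.08 with IFNg (-6.87 ± 0.39, adjusted p = 1.7e-19), and unstimulated cells read 0.847, 1.94 and 1.88. The LPS libraries were thus high and the others low, with no overlap. Ccr3, the eotaxin receptor (-4.98 ± 0.48), the sialic acid receptor gene Siglece (-4.17 ± 0.17), the carbonyl reductase gene Cbr2 (-3.97 ± 0.68), the sphingosine phosphate receptor gene S1pr1 (-3.72 ± 0.17), the interleukin-36 receptor gene Il1rl2 (-3.67 ± 0.46), the anthrax toxin receptor gene Antxr1 (-3.68 ± 0.30) and the fatty acid receptor gene Gpr84 (-3.28 ± 0.13) fell as well. So did Rab3il1 (-4.0), Olfml3 (-3.72), Nxpe5 (-3.67), Tmem26 (-3.35), Prag1 (-3.29) and Sirpb1c (-3.58), the last of a family of near-identical receptors. For each the adjusted p was 9.0e-08 or smaller.

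**Figure D1:**
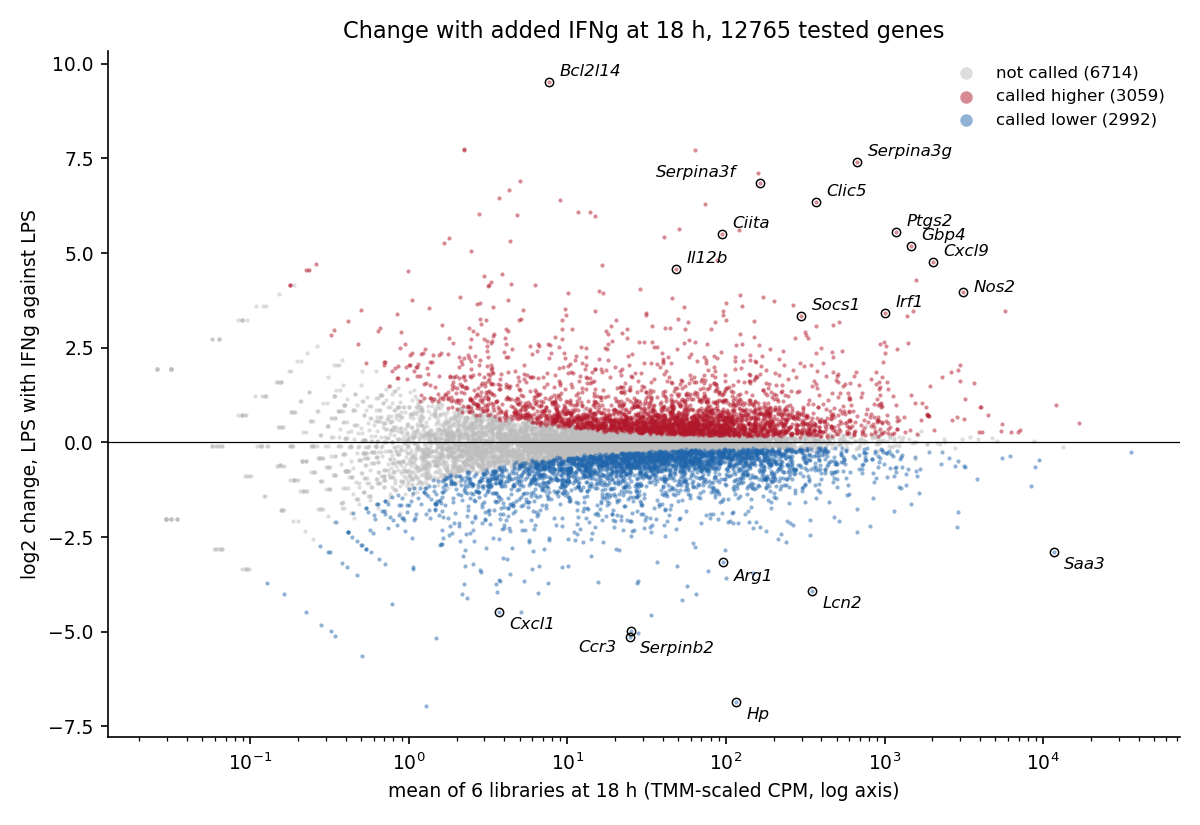
Log2 change (LPS with IFNg against LPS, 18 h) against the mean of the 6 libraries (TMM-scaled CPM, log axis) for 12765 tested genes; red points were called higher (3059), blue points lower (2992) and grey points were not called (6714). Serpina3g, Cxcl9 and Nos2 lie at high levels and high changes, and Saa3, farthest right of the circled genes, lies below 0. Bcl2l14 and other genes with no counts in a group are drawn at their fitted value, which is no bound.

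The binding chain of the receptor fell while most of the signalling genes rose. Of 17 measured genes of the receptor, JAK-STAT chain and its feedback, 12 were higher and 2 lower, with a median of 0.41; with limma-voom, with the compared groups alone, or without LPS replicate 1 or 3 or IFNg replicate 1 or 2, 1 was lower. Ifngr1, the ligand-binding chain, went from 90.4 ± 1.17 to 42.5 ± 4.39 CPM (mean ± SD, n = 3; -1.09 ± 0.08), and Ifngr2 was -0.05 ± 0.06 and not called (adjusted p = 0.52), though called lower with library-size scaling (adjusted p = 0.021). Stat2 rose by 0.41 ± 0.09, and the kinase genes Jak2 (0.79 ± 0.11), Jak1 (0.56 ± 0.07) and Tyk2 (1.04 ± 0.08) rose too, as did Stat3 (1.43 ± 0.09). Socs1, the inhibitor that blocks JAK kinases at this receptor, read 54.9, 56.3 and 50.1 CPM with LPS, 565, 552 and 512 with IFNg and 0.847, 0.895 and 0.313 in unstimulated cells (3.34 ± 0.10, adjusted p = 1.9e-21). The related Cish rose by 2.51 ± 0.25, while Socs3, which restrains interleukin-6 signals, was 0.09 ± 0.11 and not called (adjusted p = 0.57). Socs2 (-1.06 ± 0.43) was called lower (adjusted p = 0.034) although its libraries overlapped, and its call was lost in those same alternatives (adjusted p up to 0.24). The phosphatase genes Ptpn2 (1.09 ± 0.11) and Ptpn1 (0.29 ± 0.07), which act on JAKs and STATs, rose.

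Of 8 measured interferon regulatory factors, 4 rose and 1 fell, or 2 with library-size scaling or without LPS replicate 3 or IFNg replicate 3. Irf1 (ENSMUSG00000018899, chromosome 11, about 53770000 to 53778400 in rounded positions, GRCm38) read 172, 179 and 166 CPM with LPS and 1840.4, 1820.3 and 1835 with IFNg. Its change was 3.41 ± 0.07 (adjusted p = 2.0e-24). Irf8, a factor of the macrophage lineage that partners IRF1, rose from 163 ± 9.18 to 779 ± 29.4 CPM (2.26 ± 0.07). Both genes were higher in each IFNg library than in any LPS library. Irf5 (0.98 ± 0.07) and Irf2 (0.72 ± 0.09) rose by less, Irf9, the DNA-binding part of the type I interferon complex, fell (-0.24 ± 0.08), and Irf7 (0.14 ± 0.15) was not called.

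Promoter sequences of leading genes are shown for the sites that IFNg-activated factors and interferon regulatory factors are known to bind. They are from RefSeq (GRCm38.p6), the 250 bases before the start, 5′ to 3′ on the gene's strand. Capitals mark TTCNNNGAA (the GAS form) or GAAA followed by any 2 bases and GAAA again (the ISRE form), each searched on both strands over 300 bases, 250 before to 50 after the start.
Irf1 (chr11:53769764-53770013, plus strand, GAS): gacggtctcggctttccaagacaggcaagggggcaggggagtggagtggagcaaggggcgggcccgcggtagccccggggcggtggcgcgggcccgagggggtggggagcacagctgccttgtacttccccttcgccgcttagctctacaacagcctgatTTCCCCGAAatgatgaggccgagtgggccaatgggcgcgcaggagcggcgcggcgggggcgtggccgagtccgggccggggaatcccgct
Irf8 (chr8:120736108-120736357, plus strand, a pair of GAS matches): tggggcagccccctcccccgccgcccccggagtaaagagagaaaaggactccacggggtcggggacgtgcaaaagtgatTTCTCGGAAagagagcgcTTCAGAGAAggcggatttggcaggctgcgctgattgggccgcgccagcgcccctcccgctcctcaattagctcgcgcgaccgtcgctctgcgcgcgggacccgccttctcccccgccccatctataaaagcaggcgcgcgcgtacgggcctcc
Serpina3g (chr12:104235897-104236146, plus strand, GAS): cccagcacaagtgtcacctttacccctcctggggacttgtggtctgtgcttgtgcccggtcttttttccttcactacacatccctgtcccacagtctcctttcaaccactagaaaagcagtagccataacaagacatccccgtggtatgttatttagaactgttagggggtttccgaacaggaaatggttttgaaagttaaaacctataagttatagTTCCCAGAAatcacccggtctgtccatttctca
Socs1 (chr16:10785537-10785786, minus strand, overlapping ISRE matches): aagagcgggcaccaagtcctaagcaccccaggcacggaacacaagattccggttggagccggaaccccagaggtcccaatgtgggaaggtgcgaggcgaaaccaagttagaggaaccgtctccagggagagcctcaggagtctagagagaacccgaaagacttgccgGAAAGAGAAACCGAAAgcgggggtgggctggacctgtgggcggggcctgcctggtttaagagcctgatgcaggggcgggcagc
Gbp2 (chr3:142620413-142620662, plus strand, ISRE on the other strand): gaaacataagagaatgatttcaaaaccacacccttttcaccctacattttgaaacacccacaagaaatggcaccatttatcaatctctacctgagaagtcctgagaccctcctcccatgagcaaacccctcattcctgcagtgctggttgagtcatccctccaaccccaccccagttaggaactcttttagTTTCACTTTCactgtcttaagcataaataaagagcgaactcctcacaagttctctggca
Cxcl10 (chr5:92348890-92349139, minus strand, ISRE): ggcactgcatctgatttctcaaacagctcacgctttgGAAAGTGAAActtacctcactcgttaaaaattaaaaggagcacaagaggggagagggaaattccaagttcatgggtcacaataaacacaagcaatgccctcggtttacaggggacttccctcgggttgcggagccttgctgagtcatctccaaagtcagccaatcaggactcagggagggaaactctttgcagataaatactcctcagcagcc
Irf1 and Irf8 each have another annotated start whose window holds neither form. The windows of Cxcl9, Il12b, Ptgs2, Cxcl1, Tap1 and Psmb9 hold neither, and Ciita, Nos2, Gbp4, Ido1 and Hp are named only. The GAS form was present in 9.67% of 755 promoters of genes called at least 2-fold higher, 6.80% of 779 of genes called at least 2-fold lower and 6.83% of the 11935 promoters of all tested genes. The ISRE form was in 5.70%, 5.01% and 3.36% of the same promoters, and both forms in 1.46%, 0.385% and 0.419%. These are matches of letters and were not tested.

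The GTPases that attack intracellular microbes rose throughout. All 8 of 8 measured guanylate-binding proteins were higher (median 3.47), and so were all 12 of 12 immunity-related GTPases (median 2.21); Gbp5, Gbp6 and Gbp10 were not analysed here. Gbp2 read 960.1, 1094 and 817 CPM with LPS and 10476, 10532 and 10828 with IFNg (3.47 ± 0.11, adjusted p = 6.5e-20), against 5.76, 7.61 and 12.7 in unstimulated cells. Gbp4 read 81.4, 82.1 and 73.4 with LPS and 2855, 2826 and 2888 with IFNg (5.18 ± 0.09). The smallest values among the 8 were Gbp7 (1.86 ± 0.13), Gbp3 (1.85 ± 0.10) and Gbp9 (1.74 ± 0.13). Among the immunity-related GTPases, which act on the vacuoles of parasites such as Toxoplasma, Iigp1 read 142, 167 and 148 CPM with LPS and 2926, 2997 and 3092 with IFNg (4.30 ± 0.09). F830016B08Rik (5.61 ± 0.21), Gm4951 (2.92 ± 0.07), Igtp (2.60 ± 0.07), Irgm2 (1.82 ± 0.12) and Irgm1 (1.41 ± 0.09) also rose. Tgtp1 (3.35) and Tgtp2 (2.65), like 9930111J21Rik1 and 9930111J21Rik2 (1.12 each), are near-identical copies, so their separate values are uncertain. Libraries did not overlap between the groups for any gene of either family, with no share over all tested genes to set beside it.

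Most genes of MHC class II antigen presentation rose. Ciita, the coactivator that switches on class II genes, read 3.73, 3.75 and 4.73 CPM with LPS, 184, 189.8 and 183 with IFNg and 4.06, 5.97 and 5.96 in unstimulated cells (5.5 ± 0.20, adjusted p = 2.9e-22). The LPS and unstimulated libraries were both low and the IFNg libraries high. Of the 14 measured class II genes, 10 rose and 1 fell (median 1.69; 2 fell with library-size scaling). Those that rose included H2-DMa (2.57 ± 0.11) and H2-DMb1 (1.73 ± 0.09), which load peptides, H2-Oa, which restrains them (1.99 ± 0.55), the surface chains H2-Eb1 (2.11 ± 0.12), H2-Aa (1.75 ± 0.10) and H2-Ab1 (1.66 ± 0.11), the invariant chain Cd74 (1.71 ± 0.10) and Rfx5, which binds class II promoters (1.47 ± 0.16). Cd74 went from 1080.0 ± 232 to 3544 ± 267 CPM (mean ± SD, n = 3), and unstimulated cells read 467 ± 38.2. The protease gene Ctss, which trims the invariant chain, fell (-0.37 ± 0.07), and H2-DMb2 (0.67 ± 0.33) was not called.

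Changes in MHC class I were smaller, with a median of 0.42 over 23 genes, 15 higher and 4 lower. Transport and loading genes led: Tapbpl (2.05 ± 0.08), Tap2 (1.64 ± 0.09), Tap1 (1.26 ± 0.07) and Tapbp (0.72 ± 0.09), with the class I coactivator Nlrc5 (1.62 ± 0.10). The heavy chain H2-D1 rose by 0.32 ± 0.09 and B2m by 0.28 ± 0.07, while H2-K1 was 0.05 ± 0.09 (adjusted p = 0.72). Of the immunoproteasome, Psmb9 rose (0.91 ± 0.09) and Psmb8 (-0.02 ± 0.10) was not called. The loading chaperones Calr (-0.71 ± 0.06) and Pdia3 (-0.46 ± 0.07) fell. Reads of the H2-Q genes may be shared between copies. Of 24 constitutive proteasome genes, 5 were higher and 7 lower, against 3 and 12 with library-size scaling and 3 and 11 without LPS replicate 3.

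Activating and inhibitory ligands of T cells were among the genes that rose. Of 17 measured costimulatory and checkpoint genes 11 were higher and 4 lower. Cd40, which receives the T cell signal CD40L, read 96.5, 121 and 77 CPM with LPS and 829.7, 926 and 773 with IFNg (3.11 ± 0.11), and Cd86, a ligand of CD28, read 78.4, 90.5 and 64.1 and 663, 684 and 629 (3.09 ± 0.12). The PD-1 ligand genes Cd274 (2.03 ± 0.10) and Pdcd1lg2 (2.48 ± 0.35) rose, as did Tnfsf4, the OX40 ligand (1.73 ± 0.25), and Slamf8 (2.39 ± 0.10). Cd80, the other CD28 ligand, rose by 0.74 ± 0.15. Vsir, which encodes the inhibitory ligand VISTA (-1.47 ± 0.07), and Sirpa, the receptor of CD47 (-1.34 ± 0.06), fell. The dendritic cell markers Clec9a (38.8-fold higher in depth-scaled counts, 95% interval 10.4 to 326) and Xcr1 (1.34 ± 0.33) rose with IFNg as well; the summed list was at 3.55 to 6.05 CPM with LPS and 12.3 to 16.7 CPM with IFNg, and its part in these results was not tested.

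CXC chemokines moved in both directions. The 3 ligands of CXCR3, which draws T and NK cells, rose: Cxcl9 read 134, 155 and 144 CPM with LPS and 3897, 3824 and 3973 with IFNg (4.76 ± 0.12, adjusted p = 5.4e-22), Cxcl10 read 377, 442 and 357 and 2371, 2451 and 2423 (2.62 ± 0.14), and Cxcl11 rose by 3.36 ± 0.13. Unstimulated cells read 0.169, 0.298 and 0.313 for Cxcl9. The ligands of the neutrophil receptor CXCR2 fell: Cxcl1 read 6.4, 10.2 and 4.73 CPM with LPS and 0, 0.19 and 0.758 with IFNg (-4.48 ± 0.80), Cxcl2 read 101, 118 and 113 and 13.8, 16.9 and 18.4 (-2.77 ± 0.12), and Cxcl3 was -4.56 ± 0.27. The platelet-type chemokines Pf4 (-3.44 ± 0.12) and Ppbp (-3.43 ± 0.62) fell too. In all 4 of 10 CXC chemokines were higher and 5 lower. No library overlapped between the groups for any of the 8 genes named here. These 8 are called members of the list, and no share over all tested genes is given beside them.

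Of 12 measured CC chemokines 3 rose and 7 fell. Ccl3 (-1.73 ± 0.12), Ccl4 (-1.78 ± 0.12), Ccl9 (-1.77 ± 0.08), Ccl7 (-1.61 ± 0.11) and Ccl6 (-1.42 ± 0.10) were lower. Ccl24, an eotaxin (2.36 ± 0.56), Ccl8 (1.33 ± 0.16) and Ccl22, a ligand of CCR4 (1.26 ± 0.14), were higher. Ccl5 stood at 3754 ± 710.3 and 4022 ± 174 CPM and was not called (0.10 ± 0.10), but was called higher without LPS replicate 2 (0.26, adjusted p = 0.0096). Of 16 receptors for chemokines and other attractants, 13 fell and 2 rose (median -0.91, against -0.0042 for all tested genes). Those that fell included Cx3cr1, the fractalkine receptor (-3.06 ± 0.64), the formyl peptide receptor gene Fpr1 (-2.34 ± 0.09), the complement C5a receptor genes C5ar1 (-2.25 ± 0.09) and C5ar2 (-1.73 ± 0.35) and Cxcr4 (-1.21 ± 0.21). Those that rose were the chemerin-binding receptor gene Ccrl2 (2.16 ± 0.11) and Ccr7, which guides cells to lymph nodes (1.45 ± 0.18).

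Of 9 measured genes of the IL-12 family, IL-15 and their receptors 6 rose and 1 fell. Il12b, the p40 chain shared by IL-12 and IL-23, read 5.15, 3.75 and 2.65 CPM with LPS and 112, 107 and 60.6 with IFNg (4.58 ± 0.30, adjusted p = 4.1e-16); IFNg replicate 3 was the lowest of its group and still above each LPS library. The receptor genes Il12rb1 (5.64 ± 0.28) and Il12rb2 (3.53 ± 0.28), Il27 (2.65 ± 0.18), Il15 (1.34 ± 0.09) and Il15ra (2.25 ± 0.11) rose, while Ebi3, the partner of Il27 in IL-27, fell (-0.76 ± 0.08). Of 16 measured cytokine genes of the IL-1 and IL-6 families with TNF 10 rose and 4 fell (median 0.89). Il1b read 731, 893 and 685 CPM with LPS and 199, 219 and 174 with IFNg (-1.96 ± 0.16), and Il1a (-2.18 ± 0.10) and the interleukin-1 receptor gene Il1r1 (-3.27 ± 0.30) were lower too. Il6 (1.37 ± 0.19), Tnf (1.04 ± 0.11), the TRAIL gene Tnfsf10 (2.25 ± 0.11) and Il18bp, the IL-18 inhibitor (1.26 ± 0.08), rose. Il33 was 44.1-fold higher in depth-scaled counts, 95% interval 14.8 to 216. Il10ra, the binding chain of the IL-10 receptor, rose (1.37 ± 0.08). Of the colony-stimulating factors Csf1 rose (1.19 ± 0.13) and Csf3 (-2.67 ± 0.62) and the CSF-1 receptor gene Csf1r (-0.69 ± 0.07) fell.

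**Figure D2:**
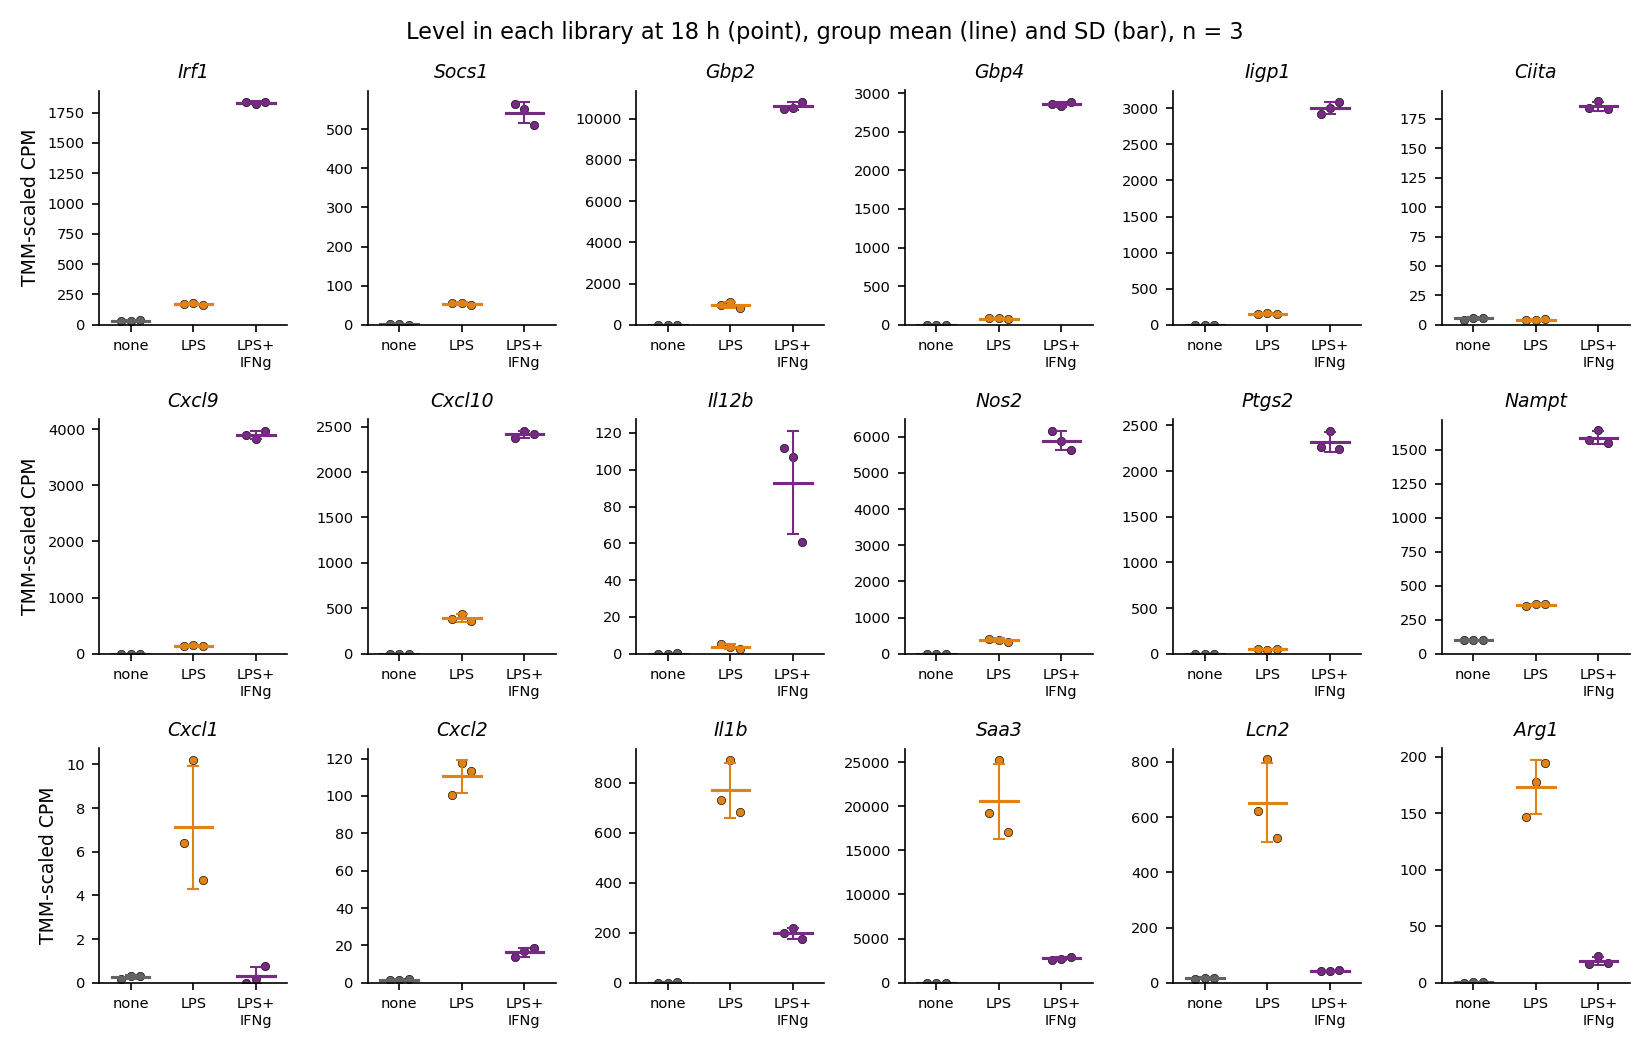
TMM-scaled CPM of 18 genes in each library at 18 h (linear axes from 0) for unstimulated cells (none), LPS and LPS with IFNg; points are libraries, lines are group means and bars are SD, n = 3. Irf1 to Nampt are highest with IFNg, and Cxcl1 to Arg1 are highest with LPS alone.

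Nitric oxide synthase and the arginases, which share arginine as substrate, moved in opposite directions. Nos2, the inducible nitric oxide synthase (ENSMUSG00000020826, chromosome 11, about 78920800 to 78960300 in rounded positions), read 420.3, 383 and 328 CPM with LPS and 6166, 5876 and 5636 with IFNg (3.97 ± 0.09, adjusted p = 2.1e-19). Arg1, which splits arginine into urea and ornithine, read 147, 178 and 195 with LPS and 16.9, 23.3 and 17.8 with IFNg (-3.17 ± 0.14), and Arg2 fell too (-1.09 ± 0.28). The groups did not overlap for any of the 3 genes. Genes for tetrahydrobiopterin, the cofactor of Nos2, were lower: Gch1 (-0.56 ± 0.09), Spr (-0.97 ± 0.13) and Qdpr (-0.77 ± 0.10). The polyamine genes Srm (-1.44 ± 0.20) and Amd1 (-1.39 ± 0.11) fell and Odc1 rose (0.74 ± 0.10). Over the 17 genes 3 were higher and 9 lower.

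In tryptophan breakdown Ido1 and Kynu were higher with IFNg. Ido1, the first enzyme of the kynurenine route, was 74.4-fold higher in depth-scaled counts, 95% interval 20.3 to 619.8, at 8.38, 8.16 and 12.1 CPM with IFNg. Kynu, which splits kynurenine, read 0.355, 0.208 and 0.756 CPM with LPS and 32.9, 27.9 and 28 with IFNg (5.99 ± 0.52), and Wars, the tryptophan tRNA synthetase, rose (2.41 ± 0.07). Kmo was -1.0 ± 0.69 (adjusted p = 0.22) and Afmid 0.64 ± 0.41 (adjusted p = 0.2), neither of them called. Of 8 measured genes 4 were higher and 0 lower.

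Ptgs2, or cyclooxygenase 2, read 54.2, 42.9 and 50.3 CPM with LPS and 2260.2, 2443 and 2243 with IFNg (5.55 ± 0.12, adjusted p = 1.3e-23). The phospholipase gene Pla2g4a, which frees arachidonic acid, rose (2.03 ± 0.11), whereas Ptges, the prostaglandin E2 synthase that follows, fell from 271 ± 20.2 to 57.9 ± 4.04 CPM (-2.22 ± 0.11). Of the leukotriene genes Alox5ap (-0.57 ± 0.06) and Lta4h (-0.76 ± 0.10) fell.

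Most glycolysis genes rose. Of 23 19 were higher and 1 lower (median 0.88). Pfkp, a phosphofructokinase (2.84 ± 0.07), the glucose transporter gene Slc2a1 (1.5 ± 0.09), the lactate exporter gene Slc16a3 (1.53 ± 0.09), the hexokinase genes Hk1 (1.34 ± 0.07) and Hk2 (1.08 ± 0.10), and Pdk1, which keeps pyruvate out of mitochondria (1.26 ± 0.10), rose most or near it. Slc2a1 read 175, 202 and 171 CPM with LPS and 536, 578 and 435 with IFNg. The abundant enzymes moved less, such as Ldha (0.67 ± 0.09), Gapdh (0.58 ± 0.07) and Pkm (0.30 ± 0.06), and Pfkfb4 fell (-0.43 ± 0.12). Targets of the hypoxia factor HIF moved the same way, with 12 of 15 higher and 0 lower (median 1.39). Hif1a itself rose (1.19 ± 0.10), as did P4ha2, a collagen prolyl hydroxylase (3.41 ± 0.18), the peptide hormone gene Adm (3.13 ± 0.52), Ndrg1 (2.99 ± 0.15), Vegfa, the vessel growth factor (2.28 ± 0.18), Bnip3 (2.20 ± 0.10) and the HIF hydroxylase genes Egln3 (1.44 ± 0.21) and Egln1 (1.39 ± 0.10).

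The mitochondrial lists held genes called higher and genes called lower. Their counts carry no test and are to be read against the 24% of all tested genes called higher and the 23.4% called lower. Acod1, which makes itaconate from the TCA cycle, rose from 1829 ± 201 to 5469.7 ± 139 CPM (1.58 ± 0.11). Idh2 (-2.06 ± 0.13) and Idh1 (-1.18 ± 0.10), the isocitrate dehydrogenases that yield NADPH, fell, as did the fumarase gene Fh1 (-0.59 ± 0.11). Idh2 read 34.3, 38.6 and 41.8 CPM with LPS and 9.94, 8.16 and 9.28 with IFNg. Of the 23 itaconate and TCA genes 7 were higher and 8 lower; the higher count was 4 with library-size scaling, with no filter or with the compared groups fitted alone. Of 27 nuclear respiratory chain genes 11 fell, led by Ndufs8 (-1.08 ± 0.15) and Ndufb8 (-0.74 ± 0.11), and 2 rose; without LPS replicate 2 the higher count was 5, and it was 1 with library-size scaling, with the compared groups alone and without LPS replicate 1 or 3 or IFNg replicate 2. Of 9 measured genes of the mitochondrial genome 3 were lower and 1 higher, or 2 higher with no filter, with the replicate block and without LPS replicate 2. Ribosomal protein genes fell in 23 of 25 cases (median -0.88), among them Rpl10a (-1.34 ± 0.10), Rps19 (-1.20 ± 0.10) and Rps6 (-1.11 ± 0.10). Rps24, the 1 called higher (0.28), lost its call with library-size scaling, with the compared groups alone and without each single library other than LPS replicate 2 (adjusted p up to 0.19).

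Genes of NAD+ supply and use, the subject of the series, were followed next. Nampt, which limits the rate of NAD+ salvage (ENSMUSG00000020572, chromosome 12, about 32819500 to 32853300 in rounded positions), read 353, 365 and 367 CPM with LPS, 1573, 1645 and 1550.1 with IFNg and 101, 98.9 and 99.5 in unstimulated cells (2.14 ± 0.07, adjusted p = 7.3e-21). The IFNg libraries were the highest and the unstimulated ones the lowest, with no overlap. The mitochondrial NAD+ kinase gene Nadk2 rose (1.03 ± 0.18) and its cytosolic relative Nadk fell (-0.76 ± 0.07). Naprt, which uses nicotinic acid, was lower (-0.65 ± 0.21), and was not called without LPS replicate 2 (-0.50, adjusted p = 0.084), which left 1 of 8 measured genes of this list lower. Nmnat1 (0.18 ± 0.17) and Nmrk1 (-0.25 ± 0.19) were not called. Cd38, the main NAD+ hydrolase of macrophages, read 165, 158 and 171 CPM with LPS and 69.1, 71.1 and 74.2 with IFNg (-1.20 ± 0.12), and its relative Bst1 was at -0.23 ± 0.08 with overlapping libraries, a call that was lost with DESeq2 (adjusted p = 0.062), with the compared groups alone (adjusted p = 0.076) and without LPS replicate 2 or IFNg replicate 1 (-0.15 and -0.14, adjusted p = 0.15 and 0.22). Among sirtuins, the NAD+-dependent deacylases, Sirt3 (0.96 ± 0.16), Sirt6 (0.51 ± 0.13) and Sirt1 (0.40 ± 0.11) rose and Sirt7 fell (-0.57 ± 0.09).

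PARP enzymes consume NAD+ to attach ADP-ribose. Of 17 measured genes 12 rose and 2 fell (median 0.54). Those that rose were led by Tiparp (1.75 ± 0.08), Parp14 (1.03 ± 0.12) and Parp10 (1.02 ± 0.09), known to attach single ADP-ribose units, and Parp4 (0.97 ± 0.16). Parp1, the main sensor of DNA breaks, read 69.3, 63.4 and 77.4 CPM with LPS and 39.9, 39.6 and 32 with IFNg (-0.91 ± 0.10), and Parp16 fell as well (-1.08 ± 0.28). Parg, which removes the chains (0.15 ± 0.12), was not called.

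Of 9 measured genes of the phagocyte NADPH oxidase, which makes superoxide, 2 rose and 2 fell. Its catalytic subunit gene Cybb was -0.05 ± 0.08 (adjusted p = 0.64) at 2272 ± 259.5 and 2194 ± 82.2 CPM, and was not called. Ncf1 (0.57 ± 0.08) and the chaperone gene Cybc1 (0.44 ± 0.07) rose, and Rac2 (-0.71 ± 0.07) and Ncf4 (-0.40 ± 0.08) fell. Antioxidant genes rose in 17 of 28 cases and fell in 6, or 2 without LPS replicate 2. The metallothionein gene Mt2 (3.02 ± 0.16), the quinone reductase gene Nqo1 (2.37 ± 0.23), the glutathione synthesis genes Gss (1.62 ± 0.14), Gclm (1.56 ± 0.10) and Gclc (1.13 ± 0.10), the sulfiredoxin gene Srxn1 (1.31 ± 0.07) and the cystine transporter gene Slc7a11 (0.85 ± 0.08) rose. The mitochondrial superoxide dismutase gene Sod2 fell (-0.57 ± 0.09). Hmox1, the heme oxygenase, rose by 0.26 ± 0.07, a call lost with library-size scaling (0.15).

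p53 targets and damage response genes went both ways, with 11 of 27 higher and 10 lower. The death genes Pmaip1 (1.78 ± 0.13) and Fas (1.75 ± 0.14), the p53 ligase gene Mdm2 (1.14 ± 0.08) and the cell cycle inhibitor gene Cdkn1a (0.52 ± 0.08) rose, while Sesn1 (-1.93 ± 0.16), Gadd45a (-1.48 ± 0.19) and Phlda3 (-0.79 ± 0.14) fell. Of 34 genes for the repair of DNA double-strand breaks 26 were not called. The 5 that rose included 3 by at least 2-fold, and the 3 that fell included Chek2 (-1.16 ± 0.22). Both counts are below the shares over all tested genes. Of 22 base excision repair genes 8 fell, with Tdp1 (-1.07 ± 0.24) and Apex1 (-0.94 ± 0.17) lowest, and 1 rose, Tdg (0.54 ± 0.15). S phase genes were 4 higher and 9 lower of 23. The cyclin gene Ccne1 rose from 5.32 ± 1.07 to 42.4 ± 2.01 CPM (3.0 ± 0.22) and the helicase gene Mcm2 fell (-1.08 ± 0.28). The lower count was 5 without LPS with IFNg replicate 1 or 2, and the higher count 2 without LPS replicate 3 or with library-size scaling.

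**Figure D3:**
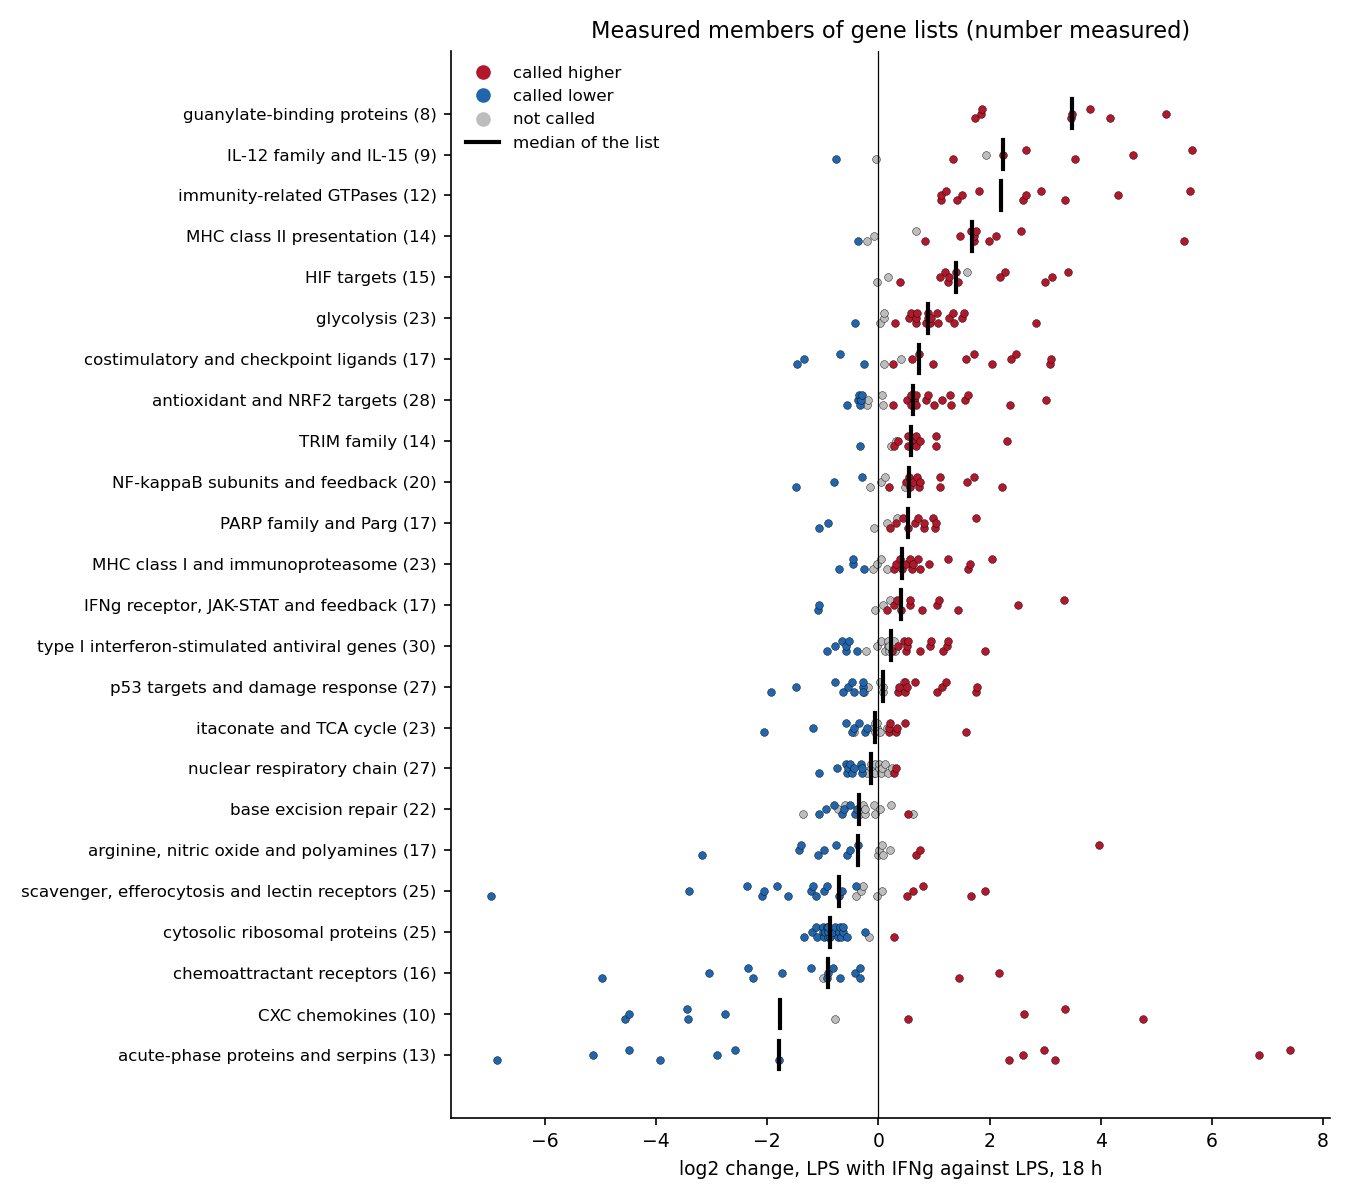
Log2 change of each measured member (point) of 24 gene lists, ordered by their median (black bar), LPS with IFNg against LPS at 18 h; the number measured is in brackets and colours give the call. Guanylate-binding proteins have the highest median (3.47). Ribosomal proteins lie mostly below 0, from -1.34 to 0.28. CXC chemokines and acute-phase proteins with serpins split into a high and a low set.

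The acute-phase genes named here fell, while the serpins named in the text rose apart from Serpinb2. Saa3, an acute-phase protein of macrophages, read 19276, 25272 and 17092 CPM with LPS and 2581, 2734 and 2954 with IFNg (-2.90 ± 0.17, adjusted p = 6.9e-14). Lcn2, or lipocalin 2, which withholds iron from bacteria, read 622, 809 and 526 and 41.5, 41.7 and 44.5 (-3.94 ± 0.12). LPS replicate 2 was the highest library for both genes, and the IFNg libraries all lay below the LPS ones. Saa1 (-4.49 ± 0.53), Orm1 (-2.59 ± 0.32) and the elastase inhibitor gene Slpi (-1.78 ± 0.18) fell too; Saa genes are close relatives and may share reads. The neutrophil markers S100a8 (-2.17 ± 0.26), S100a9 (-1.62 ± 0.29) and Ngp (-2.37 ± 0.23) moved in the same direction, from a summed level of 104.5 to 162 CPM to 27.6 to 51.5 CPM for the list, with Retnlg at 0; their part in these results was not tested. Among serpins Serpinb2, the plasminogen activator inhibitor 2, fell (-5.14 ± 0.40). Serpinb9, the granzyme B inhibitor (3.17 ± 0.08), and Serpinb6b (2.60 ± 0.19) rose, as did Serpina3g, Serpina3f, Serpinb1a and Serping1.

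Scavenger and lectin receptors mostly fell, 15 of 25 against 5 higher (median -0.71). Cd163, the receptor of haptoglobin and haemoglobin, had no counts with IFNg and was at least 14.8-fold lower. The mannose receptor gene Mrc1 (-1.63 ± 0.22), the scavenger receptor genes Msr1 (-1.82 ± 0.08) and Marco (-1.19 ± 0.12), Trem2 (-1.21 ± 0.08), Clec4a3 (-3.40 ± 0.20) and Clec4a2 (-2.09 ± 0.09), of the C-type lectins, and Gas6, a bridge to dying cells (-2.37 ± 0.16), fell. Mertk, which takes up dying cells with Gas6 (1.91 ± 0.10), and Clec7a, the glucan receptor dectin-1 (1.66 ± 0.11), rose. Mertk was also the 1 of 10 macrophage markers that rose; 7 fell, among them Adgre1 (-0.96 ± 0.09), Lyz2 (-1.14 ± 0.08) and Itgam (-1.13 ± 0.09).

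Of 22 measured genes of Toll-like receptors and their co-receptors and adaptors 8 fell and 6 rose. Tlr2, for bacterial lipopeptides (-2.14 ± 0.09), Tlr7 (-1.22 ± 0.11) and Tlr8 (-0.90 ± 0.17), for RNA, and Cd14, the LPS co-receptor (-0.94 ± 0.09), fell, while Tlr9, for DNA, rose (2.60 ± 0.17) and Tlr4 was -0.02 ± 0.13 and not called. Fc gamma receptors split, with the inhibitory Fcgr2b (-2.43 ± 0.12) and Fcgr1 (-0.90 ± 0.08) lower and Fcgr4 (0.44 ± 0.08) higher. In the complement list C4b (3.22 ± 0.43), C3 (1.62 ± 0.14) and the C1 inhibitor gene Serping1 (3.57 ± 0.61) rose and Cfb (-1.44 ± 0.17), Cfp (-1.36 ± 0.08) and C1qa (-1.12 ± 0.15) fell. Inflammasome genes were 9 higher and 3 lower of 17. Casp4 (0.87 ± 0.10) and Aim2 (0.87 ± 0.10), sensors of LPS and DNA in the cytosol, rose, and the adaptor gene Pycard fell (-1.25 ± 0.10).

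Of 30 type I interferon-stimulated antiviral genes, which LPS is known to induce through interferon beta, 13 were higher and 7 lower (median 0.22). The lower count is near the share of all tested genes called lower, 23.4%, and the higher count is above the 24% called higher. Mx2 (1.92 ± 0.09), Mx1 (1.26 ± 0.09), Oasl1 (1.23 ± 0.10) and Ifit2 (1.15 ± 0.11) were higher, Isg20 (-0.92 ± 0.11), Ifit3 (-0.78 ± 0.14) and Ifitm3 (-0.66 ± 0.15) lower. Of the TRIM family 11 of 14 rose and 1 fell, led by Trim30c (2.31 ± 0.12). Of NF-kappaB subunits and feedback genes 13 of 20 rose, such as Ripk2 (2.23 ± 0.10), Icam1, an adhesion molecule (1.60 ± 0.07), and Tnfaip3, which encodes A20 (0.69 ± 0.09), and 3 fell, among them the IRAK inhibitor gene Irak3 (-1.49 ± 0.08) and Nfkbiz (-0.80 ± 0.11), a coactivator of secondary response genes. Among transcription factors of macrophages 12 of 29 rose and 12 fell. Runx3 (3.23 ± 0.19), Klf4 (3.18 ± 0.11), Batf2 (2.77 ± 0.11) and Batf3 (2.25 ± 0.41) rose. Myc (-3.23 ± 0.52), Cebpd (-2.62 ± 0.31) and Id1 (-1.24 ± 0.24) fell. Myc read 4.8, 4.38 and 4.54 CPM with LPS and 0.311, 1.14 and 0 with IFNg, while its relative Mycl went from 0.355, 0.208 and 0.378 to 22.5, 22.9 and 23.3.

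The same addition was compared at 1 h in separate libraries, to see where the late effect differs from the early one. At 1 h 1502 genes were called (11.8%), 832 higher (6.52%) and 670 lower (5.25%), or 687 and 1011 with library-size scaling. Of the 832, 454 were also higher at 18 h (54.6%), 130 were lower and 248 were not called; those 454 were 14.8% of the 3059 higher at 18 h. Of the 670 lower at 1 h, 185 were lower, 213 higher and 272 not called at 18 h. The change at 18 h differed from that at 1 h for 4463 genes (35.0%), more positive for 2103 (16.5%) and more negative for 2360 (18.5%), by an interaction contrast in the same fit; the sign does not say at which time the change was larger.

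Several interferon-induced genes were higher at both times. Irf1 changed by 2.16 ± 0.07 at 1 h and by 3.41 at 18 h, a difference of 1.25 ± 0.10 (adjusted p = 2.3e-11). Cxcl9 read 0.203, 0.449 and 0 CPM in the LPS libraries at 1 h, 3 counts in all, and 1318, 1238 and 1289 with IFNg (5716-fold higher with IFNg in depth-scaled counts, 95% interval 1956 to 27718). Its change at 18 h was 4.76, and the contrast between the times was called as lower at 18 h (adjusted p = 2.8e-14). Gbp4 had 1 and 43 counts at 1 h with LPS and with IFNg (35.9-fold higher with IFNg in depth-scaled counts, 95% interval 6.12 to 1452) and Serpina3g 2 and 183 (76.5-fold higher with IFNg in depth-scaled counts, 95% interval 20.9 to 636); their differences between times were not called (adjusted p = 1 and 0.55). Of the 8 guanylate-binding proteins 6 were higher at 1 h (median 3.78), and by the contrast 1 had a more positive and 4 a more negative change at 18 h. Of the 12 immunity-related GTPases 11 were higher at 1 h (median 4.07), and 1 had a more positive and 7 a more negative change at 18 h. Other genes were called at 18 h and not at 1 h. Ciita was 0.27 ± 0.17 at 1 h (adjusted p = 0.45), when it read 12.6, 9.88 and 14.3 CPM with LPS and 14.8, 15.3 and 14.2 with IFNg, and its difference between times was 5.23 ± 0.27 (adjusted p = 8.9e-16). Clic5 (3 and 4), Slc6a19 (4 and 7), Il12rb1 (2 and 3) and Kynu (4 and 8) had few counts at 1 h, given with LPS first and with IFNg second, and their differences were called (adjusted p at most 0.015). Of the 14 MHC class II genes 0 were higher and 0 lower at 1 h, against 10 and 1 at 18 h. By the contrast 9 had a more positive and 1 a more negative change at 18 h. Of 23 glycolysis genes 3 were higher and 3 lower at 1 h. Of these 23, 18 had a more positive and 2 a more negative change at 18 h. For the 30 type I interferon-stimulated antiviral genes, 21 were higher and 0 lower at 1 h. By the contrast 3 of them had a more positive and 14 a more negative change at 18 h.

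Some other genes turned between the times. Serpinb2 rose at 1 h (3.67 ± 0.40) and fell at 18 h (-5.14), a difference of -8.80 ± 0.57. Thbd, or thrombomodulin (1.68 ± 0.29), and the kinase gene Sgk1 (2.71 ± 0.08) rose at 1 h and fell at 18 h, at -2.80 and -1.70. The lipase gene Lipg rose at 1 h (18.9-fold higher with IFNg in depth-scaled counts, 95% interval 6.21 to 94.2) and fell at 18 h (-1.34). Arg1 had 1 and 4 counts at 1 h, with no call (adjusted p = 0.71), and was -3.17 at 18 h, so a turn cannot be stated for it. Mycl (-2.06 ± 0.36) and the AP-1 gene Jdp2 (-2.03 ± 0.13) fell at 1 h and rose at 18 h, at 6.08 and 3.20. Il1b and Cxcl1 did not turn and were lower at both times. Il1b was -1.46 ± 0.16 at 1 h (adjusted p = 3.1e-08) and -1.96 at 18 h, and Cxcl1 -1.34 ± 0.11 (adjusted p = 4.3e-11) and -4.48.

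**Figure D4:**
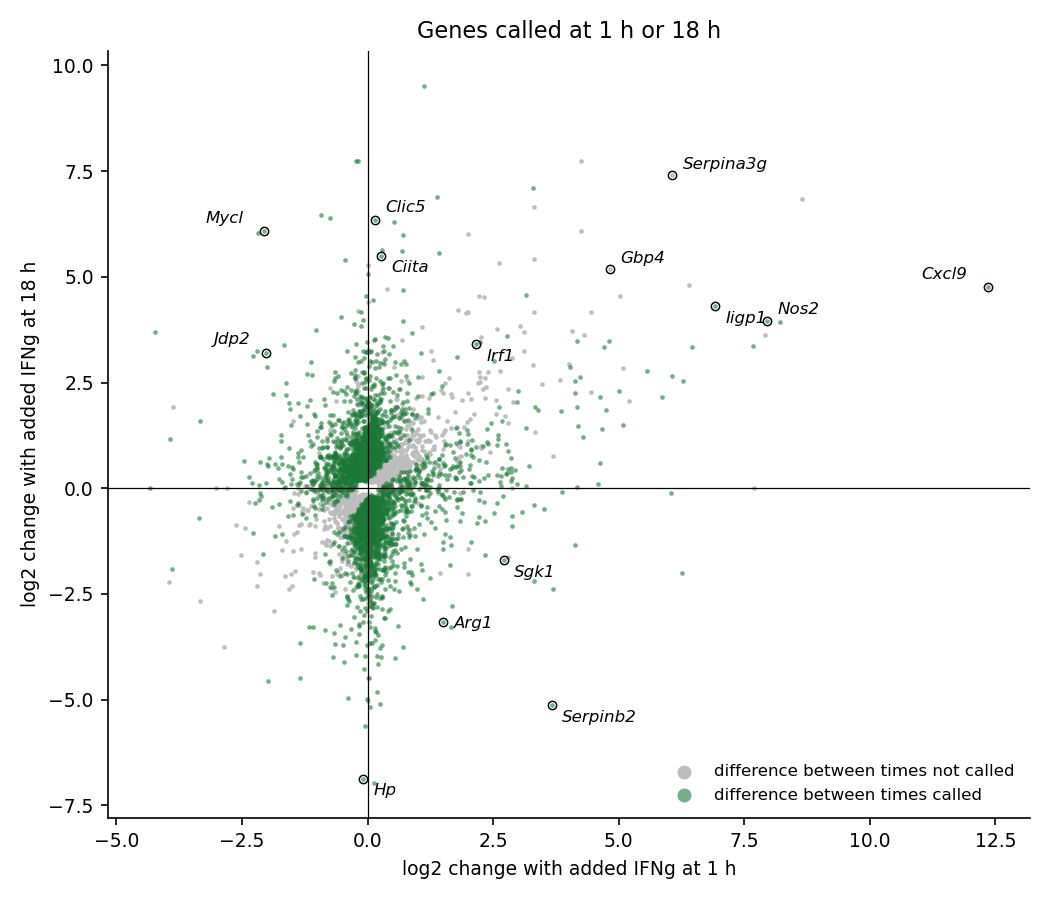
Log2 change with added IFNg at 18 h (vertical) against 1 h (horizontal) for genes called at either time; green points have a called difference between the times by the interaction contrast. Positions of genes with 3 or fewer counts in a group, such as Cxcl9 and Arg1 at 1 h, are fitted values. Cxcl9 lies far to the right, Ciita and Clic5 lie near 0 at 1 h and high at 18 h, and Serpinb2, Arg1 and Sgk1 lie above 0 at 1 h and below 0 at 18 h.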

How the data were processed

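Bone marrow-derived macrophages were profiled by RNA sequencing in 24 libraries of 8 groups, of which the 3 of LPS and the 3 of LPS with IFNg at 18 h were compared here. Each deposited file is one library's unscaled read counts, listed by Ensembl identifier, as the authors left them. Build GRCm38 and the tools deepTools, featureCounts, STAR and DESeq2 are named per the submitters' processing notes; for versions, annotation release and strand setting the entry is not given in the sources used here. A stranded mRNA kit was used, per the labels' protocols. Of 43629 identifiers per file 42548 were matched to GENCODE M21.

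Genes were filtered by filterByExpr (minimum count 10), so 12765 were tested and 30864 were not. The model, in edgeR 4.0.16 (R 4.3.3) with TMM scaling, took all 24 libraries and gave each group its mean. Quasi-likelihood tests were two-sided and adjusted by Benjamini-Hochberg over all tested genes. Total counts of the 6 libraries (5713462 to 8057789) and a common biological coefficient of variation of 0.0736 set the precision. In simulated counts of 11845 genes at these depths, the 18 h test recovered 42 of 67 simulated 1.5-fold changes, 60 of 67 2-fold changes and 66 of 66 4-fold changes, and 14 of its 182 calls were false. Only these genes, drawn above a minimum level, were changed, and no library was made to stand apart. In the data 6051 genes were called and LPS replicate 2 stood apart, so these rates need not carry over.

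The members, the 55 gene lists and the 8 marker lists were chosen with earlier results of these data known, and list counts carry no test. Genes were named as the 20 largest increases and 20 largest decreases (called, mean of at least 5 CPM, no overlap, no predicted genes), up to 6 called members of each list, members of the interferon, antigen presentation, arginine, kynurenine, IL-12, NAD+, PARP and oxidase lists, and the 8 largest differences between times in each direction. Marker genes are given as checks. Some genes that these rules name are not reported here. A few others (macrophage and neutrophil marker genes, smaller members of lists and the genes set beside them at 1 h) were named after their values were seen. Folds against a group at 0 counts are lower bounds, taken against 3 counts in the group as a whole; against 1 to 3 counts they are ratios with an exact 95% interval. Standard errors come from the fitted means, dispersions and posterior quasi-dispersions. The alternatives tried were scaling by median of ratios or by library size, no filter, DESeq2 1.42.0, limma-voom (limma 3.58.1), the compared groups alone, a replicate block, a threshold of 0.01 and each replicate left out.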

Additional observations from a re-analysis of the deposited data

Results flagged for a closer look

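The effect of added IFNg differed between 18 h and 1 h, by the interaction contrast of the edgeR fit, with a positive contrast (18 h minus 1 h) for 2103 genes and a negative one for 2360, whatever the size of either change. Among the 8 named genes with the largest positive differences were Mycl (8.14), Clic5 (6.19), Slc6a19 (5.77), Egr3 (5.45), Il12rb1 (5.35), Kynu (5.29), Jdp2 (5.23) and Ciita (5.23), on the log2 scale. Egr3 had no counts in the LPS libraries at 18 h, and Clic5, Il12rb1, Cxcl9, Lipg and Arg1 had 1 to 3 counts in the LPS libraries at 1 h, so their fitted values depend on the prior count. The 8 with the largest negative differences were Serpinb2 (-8.80), Cxcl9 (-7.59), Hp (-6.78), Lipg (-5.46), Ccr3 (-4.97), Arg1 (-4.67), Thbd (-4.48) and Sgk1 (-4.41). Cxcl9 rose at both times, whereas Hp was -0.08 and Ccr3 -0.00 at 1 h, neither of them called, and both fell at 18 h. The libraries of the 2 times are separate, and at each time the labels leave the LPS dose of either group unstated.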

How the results depend on the processing

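Under the alternatives other than the library-size scaling given with the results, 2410 to 3258 genes were higher and 2301 to 3149 lower at 18 h, and no call turned its direction in any of them. Leaving out each replicate gave 2746 to 2926 higher and 2654 to 2860 lower, with 2870 and 2725 without LPS replicate 2. Of 305 called genes named in the text, 300 kept the call at 0.05 in every alternative; Bst1, Naprt, Hmox1, Socs2 and Rps24 lost it as described. At 1 h the genes called lower went from 670 to 1011 with library-size scaling; the cause was not tested. Genes not called, with values near 0, changed sign in some alternatives. With library-size scaling Ccl5 was -0.010, H2-K1 -0.065 and Socs3 -0.028. With limma-voom Psmb8 was 0.00024 and Tlr4 0.0027. With 1 replicate left out Cybb ranged from -0.14 to 0.0063, H2-K1 from -0.023 to 0.15, Psmb8 from -0.14 to 0.17 and Tlr4 from -0.20 to 0.13. Counts of 18 of 63 lists moved by more than 1.5 times in at least 1 alternative.

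Replicate numbers were shared by the groups, but the labels do not say what they mean. Same-numbered libraries of the 18 h groups correlated at 0.058, 0.16 and 0.11 in their deviations, so the pairing was not taken as given, although every library correlated best with its own number. With the replicate block 3258 genes were higher and 3149 lower, and no call was turned. Depth limits what 0 counts in every LPS library can show to levels above 0.191 CPM.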

Other observations

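Iron handling genes, which the series does not name, mostly fell with IFNg, 7 of 13 measured against 3 higher. Apart from Lcn2, the metalloreductase gene Steap3 (-2.17 ± 0.12), the metal importer gene Slc39a14 (-1.64 ± 0.12), the biliverdin reductase gene Blvra (-1.54 ± 0.09) and Cp, encoding ceruloplasmin (-1.35 ± 0.11), were lower, while Slc40a1, the iron exporter ferroportin, was higher (0.50 ± 0.09). Of 12 purine receptor and enzyme genes 7 fell and 2 rose. Entpd1, the ectoenzyme CD39 that degrades extracellular ATP, rose (2.11 ± 0.12), and Adora2b (-1.65 ± 0.15), a receptor of adenosine, fell with Adk, the kinase that clears adenosine (-1.54 ± 0.17). Lysosomal genes were 8 higher and 12 lower of 27, with the cathepsin genes Ctsh (1.60 ± 0.07) and Ctsc (1.48 ± 0.08) higher and Ctsl (-1.84 ± 0.10) and Ctsk (-1.60 ± 0.26) lower; with library-size scaling 5 were higher.

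Of 22 matrix protease and coagulation genes 12 fell and 5 rose. F13a1, encoding a subunit of coagulation factor XIII (-3.96 ± 0.57), Thbd (-2.80 ± 0.38), Mmp8 (-2.63 ± 0.23), Mmp14 (-1.47 ± 0.08) and Mmp9 (-1.28 ± 0.32) were lower, and Mmp25 (2.67 ± 0.22) and the tissue factor gene F3 (15.7-fold higher in depth-scaled counts, 95% interval 4.03 to 135) were higher. Of 9 LXR target genes 4 rose and 4 fell. The oxysterol enzyme gene Ch25h (2.65 ± 0.19) rose and the sterol exporter gene Abca1 (-1.19 ± 0.17) fell. Cholesterol and fatty acid synthesis genes were 7 higher and 9 lower of 28, with Stard4 (-1.07 ± 0.26) lowest. In the integrated stress response list Psat1, of serine synthesis, rose (2.48 ± 0.13) and Phgdh, which acts before it, fell (-1.24 ± 0.33).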
